A study of Mus musculus with 18 samples.

Results

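The classical MHC class I molecule displays peptides cut from a cell's own proteins, and CD8 T cells read what it displays. Its heavy chains are H2-K1 and H2-D1 in C57BL/6 mice, and B2m is the light chain that each of them needs to reach the cell surface. Peptides are cut by the proteasome, pumped into the endoplasmic reticulum by the transporter Tap1/Tap2 and loaded with the help of tapasin (Tapbp). Interferon-γ replaces the catalytic subunits Psmb5, Psmb6 and Psmb7 of the proteasome by Psmb8, Psmb9 and Psmb10, which gives the immunoproteasome. Nlrc5 is the transactivator that binds no DNA itself and drives class I genes through factors sitting on their promoters. In the colon these genes are transcribed in the epithelium and in immune cells of the lamina propria. The members were these 10 genes, *B2m*, *H2-K1*, *H2-D1*, *Tap1*, *Tap2*, *Tapbp*, *Psmb8*, *Psmb9*, *Psmb10* and *Nlrc5*, taken by name from the 47729 genes of the count table.

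RNA-Seq was done on colon from WT mice and from mice lacking claudin-2 (*Cldn2*KO), a tight junction protein that forms a paracellular cation channel. Each genotype was studied untreated (control), while recovering from colitis that dextran sulfate sodium (DSS) in drinking water had induced, and after the AOM/DSS tumor protocol, in which the carcinogen azoxymethane (AOM, 10 mg/kg) was followed by 3 cycles of 2.5% DSS. All lines were on a C57BL/6 background, with littermate WT mice as controls and mice matched for age and sex according to the methods, with no ages given. The 18 libraries formed 6 groups of 3, with 17643058 to 27390344 counted reads each. *Cldn2* itself ranged from 44.5 to 504.2 CPM (read counts relative to TMM-scaled library size) in the 9 WT libraries and from 0.0555 to 0.557 CPM in the 9 *Cldn2*KO libraries. Replicate 2 of the WT controls stood apart. It had 0.327 CPM of *Hoxb13*, a gene of the distal colon, where the other 5 control libraries had 443.8 to 570.1 CPM, and all 6 recovery libraries had 0.0 to 0.502 CPM. A difference between recovery and control therefore cannot be told apart from a difference in colon segment. *Xist*, which is transcribed in females, was at 864.6 to 1742 CPM in replicates 2 and 3 of the WT recovery, *Cldn2*KO recovery and *Cldn2*KO AOM/DSS groups and at most 1.16 CPM in every other library. Epithelial markers were high in every library, at a summed 13450 to 26300 CPM.

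The promoters of the light and heavy chains are shown first because the class I genes share letters there. The sequences are RefSeq's, on GRCm38.p6, and end at the base before RefSeq's start of transcription. Windows were found for 8 of the 10 members, and *Tap2* and *Nlrc5* had none. The letter patterns described here were searched on both strands of the 250 bases before each start, after the windows had been seen: the interferon-stimulated response element (ISRE, GAAANNGAAA), the core that IRF proteins bind (AANNGAAA, contained in the ISRE), the κB pattern by its name, the cyclic AMP response core (TGACG) and the CCAAT box (CCAAT). Capitals mark matches to these.
B2m, chr2:122147437-122147686, plus strand: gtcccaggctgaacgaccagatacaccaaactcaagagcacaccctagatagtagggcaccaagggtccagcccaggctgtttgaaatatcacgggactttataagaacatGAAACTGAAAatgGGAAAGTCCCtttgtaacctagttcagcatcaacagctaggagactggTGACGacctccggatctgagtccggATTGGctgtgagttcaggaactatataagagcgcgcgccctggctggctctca
H2-K1, chr17:34000334-34000583, minus strand: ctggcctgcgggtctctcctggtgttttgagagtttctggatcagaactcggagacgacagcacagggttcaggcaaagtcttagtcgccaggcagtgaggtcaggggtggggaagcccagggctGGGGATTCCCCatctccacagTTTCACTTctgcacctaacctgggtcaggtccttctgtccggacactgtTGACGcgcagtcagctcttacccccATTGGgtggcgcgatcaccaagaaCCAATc
H2-D1, chr17:35262844-35263093, plus strand: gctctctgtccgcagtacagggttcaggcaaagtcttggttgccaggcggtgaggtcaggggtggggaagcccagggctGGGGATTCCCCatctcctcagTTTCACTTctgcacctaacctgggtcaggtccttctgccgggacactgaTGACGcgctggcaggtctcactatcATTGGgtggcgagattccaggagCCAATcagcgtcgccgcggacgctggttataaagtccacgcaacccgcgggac
Psmb9 and Tap1, chr17:34187331-34187555, plus strand, from the base after the Psmb9 start to the base before the Tap1 start: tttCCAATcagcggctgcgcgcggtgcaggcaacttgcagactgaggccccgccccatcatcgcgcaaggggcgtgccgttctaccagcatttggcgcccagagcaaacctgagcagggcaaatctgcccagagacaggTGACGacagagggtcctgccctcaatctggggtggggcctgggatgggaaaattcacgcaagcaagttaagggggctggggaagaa

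*B2m*, *H2-K1* and *H2-D1* each held a κB match, an IRF core, TGACG and CCAAT in these windows. In *H2-K1* and *H2-D1* the order was κB, IRF core, TGACG and CCAAT, and their aligned bases were identical at 180 of 203 positions (88.7%). In *B2m* the full ISRE lay before the κB match, and it was the only member with a full ISRE, which 2.98% of all 32851 promoter windows held. The IRF core was in 3 of 8 members and in 21.3% of all windows, and the κB pattern in 3 of 8 and in 7.25%. *Psmb9* and *Tap1* are read away from each other across the stretch of 225 bases between their RefSeq starts, which held TGACG and CCAAT and no match to the ISRE or the IRF core as written. TGACG was found in 5 of 8 members and 17.8% of all windows, and CCAAT in 6 of 8 and 33.8%. These matches describe letters and say nothing of binding in these mice.

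In all, 7 of the members lie in the MHC region of chromosome 17, all but *B2m* (chromosome 2) and *Psmb10* and *Nlrc5* (chromosome 8). *Psmb9*, *Tap1*, *Psmb8* and *Tap2* follow each other within 34334 bases (chromosome 17, 34181988 to 34216321, GRCm38). The gene models of the count table begin further out than the RefSeq starts used for the promoter windows of *Psmb9*, on the minus strand, and *Tap1*, on the plus strand, and in these models the genes share 212 bases of exon. That is 5.79% of the *Psmb9* gene model and 3.87% of the *Tap1* model, and their reads there cannot be told apart without strand, which the sources used here do not give. *H2-K1* and *H2-D1* share stretches with other heavy chains. Of the 50-base words in the transcripts of *H2-K1*, 9.63% also occurred in another gene, as did 12.8% of those of *H2-D1*, so their counts are uncertain by the reads that fall there. For *B2m* and *Psmb10* the share was 0.0%. For *Tapbp* it was 23.2%, for *Tap2* 11.6% and for *Psmb8* 11.9%, and the partners with most shared exon, *Gm19412*, *Gm15821* and *Gm20496* on the opposite strands, had 5, 135 and 47 reads in all 18 libraries together.

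All 10 members passed the filter on low counts in the fit of 16937 genes, and the lowest count of any member was 23 reads, for *Nlrc5* in a *Cldn2*KO control. Levels per kilobase of gene model in the WT controls, the only scale on which genes are compared here, were highest for the light chain, at 2222 ± 610.9 CPM per kb (SD, n = 3) for *B2m*, followed by 805.6 ± 98.0 for *H2-K1*. *Psmb10* had 191.9 ± 24.9 CPM per kb, *Tap1* 19.6 ± 5.06 and the transactivator *Nlrc5* 5.51 ± 0.855. The WT control group had the highest mean CPM of the 6 groups for 10 of 10 members, which was so for 14.1% of all genes. Ranked by mean, 37 of the 50 pairs of neighbouring groups overlapped in their 3 values, so most steps in the order were within the spread of the libraries. The WT controls lay wholly above the next group for 5 members, *H2-D1*, *Tap1*, *Tap2*, *Tapbp* and *Psmb9*, which was so for 1.35% of all genes. *Cldn2*KO recovery was lowest by mean for 5 members, and *Cldn2*KO AOM/DSS for 3.

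**Figure D1:**
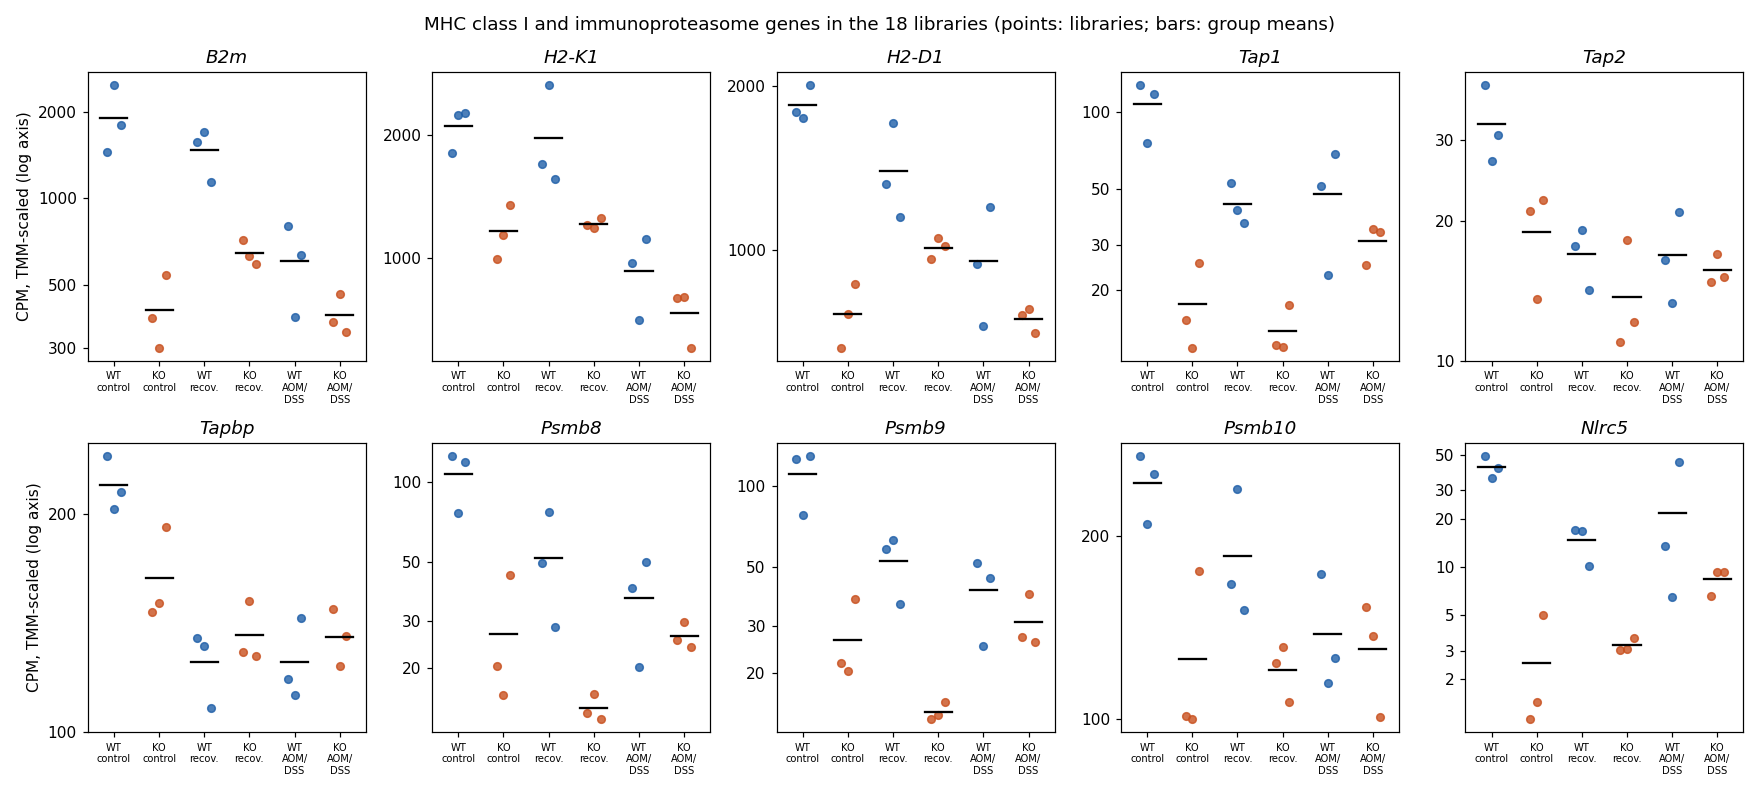
CPM of the 10 genes on log axes in the 6 groups, each point 1 library (WT blue, *Cldn2*KO orange) and each bar the group mean. The WT controls have the highest mean in all 10 panels, and in the controls the 3 *Cldn2*KO points lie below the 3 WT points in each panel.

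In untreated colon 6 of the 10 members were lower in *Cldn2*KO than in WT mice and none was higher (edgeR, adjusted p under 0.05), where 1.05% of all genes tested were called lower. *Nlrc5*, *Tap1*, *B2m*, *Psmb9*, *Psmb8* and *H2-D1* were called, in order of size. The median log2 fold change over the 10 members was -1.63, beside -0.01 over all genes. The 3 *Cldn2*KO libraries lay below the 3 WT libraries for 10 of 10 members, which was so for 10.7% of all genes. The count stayed at 6 without replicate 2 of the WT controls (1.05% of genes called lower) and fell to 2 without replicate 1 of the *Cldn2*KO controls (0.132% of genes).

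*Nlrc5* had 49.0, 35.9 and 41.4 CPM in the WT controls and 1.13, 1.44 and 5.005 CPM in the *Cldn2*KO controls. Even the highest *Cldn2*KO library was far below the lowest WT library. Its log2 fold change was -4.06 ± 0.64 (SE, adjusted p = 0.00582), the largest of the members.

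The light chain *B2m* had 1448, 2482 and 1803 CPM in the WT controls and 383.1, 301.4 and 539.7 CPM in the *Cldn2*KO controls, a log2 fold change of -2.23 ± 0.29 (adjusted p = 0.00197). The heavy chain *H2-D1* had 1785, 1741 and 2005 CPM against 660.6, 760.2 and 863.3 CPM, a log2 fold change of -1.28 ± 0.19 (adjusted p = 0.0041). The other heavy chain, *H2-K1*, had 1806, 2241 and 2256 CPM against 996.1, 1142 and 1346 CPM and missed the threshold, with a log2 fold change of -0.86 ± 0.22 (adjusted p = 0.0797). For all 3 chains the groups did not overlap.

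Of the transporter and loading genes, *Tap1* had 128.0, 75.8 and 118.1 CPM in the WT controls and 15.2, 11.8 and 25.5 CPM in the *Cldn2*KO controls. It was 6.14-fold lower, with a log2 fold change of -2.62 ± 0.37 (adjusted p = 0.0032). Its partner *Tap2*, the other chain of the same transporter, had 27.0 to 39.4 CPM against 13.6 to 22.3 CPM and missed the threshold (log2 fold change -0.77 ± 0.24, adjusted p = 0.141). Tapasin, *Tapbp*, moved least, from 202.8 to 240.4 CPM in WT to 146.6 to 192.0 CPM in *Cldn2*KO (log2 fold change -0.43 ± 0.15, adjusted p = 0.201).

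Among the inducible proteasome subunits, *Psmb9* had 126.5, 78.2 and 129.6 CPM in the WT controls and 21.8, 20.4 and 37.99 CPM in the *Cldn2*KO controls (log2 fold change -2.06 ± 0.31, adjusted p = 0.0041). *Psmb8* had 125.3, 76.7 and 119.3 CPM against 20.3, 15.8 and 44.8 CPM (log2 fold change -1.99 ± 0.41, adjusted p = 0.0296). Replicate 3 was the highest of the *Cldn2*KO controls for both, and still below every WT control. *Psmb10* had 208.6 to 269.9 CPM against 100.1 to 174.7 CPM and missed the threshold (log2 fold change -0.96 ± 0.24, adjusted p = 0.0712). Over the 15 alternative fits of this comparison *B2m* and *Tap1* were called in 15, *H2-D1* and *Psmb9* in 14, *Nlrc5* in 13 and *Psmb8* in 9.

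Some markers of immune cells were lower in the same libraries. The 12 T and NK cell markers summed to 12.4, 158.8 and 17.9 CPM in the WT controls and 3.80, 1.77 and 10.6 CPM in the *Cldn2*KO controls, with 4 of 12 called lower. The 158.8 CPM belonged to replicate 2, the WT control without *Hoxb13*, and the groups did not overlap with or without it. The 8 B and plasma cell markers summed to 1533 to 1700 CPM against 22.03 to 266.4 CPM, with 3 of 8 called lower. *Ptprc* (CD45, on all leukocytes) had 16.5 to 76.7 CPM against 5.21 to 27.1 CPM. None of the 8 myeloid markers was called, but 8 of 8 were below 0, with a median log2 fold change of -0.999. None of these markers was at 0 in all 3 libraries of either group. Smooth muscle markers summed to 3528 to 5313 CPM in WT and 7225 to 9601 CPM in *Cldn2*KO, with none of 6 called, and none of the 9 epithelial markers was called. Fewer cells of a type and less RNA per cell cannot be told apart in bulk tissue, and the part of these cells in the fall of the class I genes was not tested.

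During recovery from DSS *Tap1*, *Psmb8* and *Psmb9* were lower in *Cldn2*KO than in WT colon, 3 of 10 members, where 0.425% of all genes were called lower. The median log2 fold change over the members was -0.94, beside 0.00 over all genes. *Cldn2*KO libraries lay wholly below WT libraries for 8 of 10 members, which was so for 11.7% of all genes. *Tap2* and *Tapbp* were the exceptions.

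*Psmb9* had 58.1, 62.8 and 36.4 CPM in WT recovery and 13.5, 13.9 and 15.6 CPM in *Cldn2*KO recovery (log2 fold change -1.87 ± 0.31, adjusted p = 0.0166). *Psmb8* had 49.8, 77.5 and 28.4 CPM against 13.6, 16.1 and 12.9 CPM (log2 fold change -1.87 ± 0.42, adjusted p = 0.0461). *Tap1* had 52.7, 41.2 and 36.5 CPM against 12.2, 11.9 and 17.4 CPM (log2 fold change -1.66 ± 0.36, adjusted p = 0.0418). Every *Cldn2*KO library lay below every WT library for all 3 genes.

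*B2m* had 1565, 1708 and 1140 CPM in WT recovery and 716.3, 631.0 and 590.5 CPM in *Cldn2*KO recovery and missed the threshold (log2 fold change -1.19 ± 0.28, adjusted p = 0.0568). *Nlrc5* had 16.97, 16.79 and 10.17 CPM against 3.05, 3.11 and 3.59 CPM (log2 fold change -2.17 ± 0.60, adjusted p = 0.0714). The groups did not overlap for either gene. The heavy chains had log2 fold changes of -0.70 ± 0.22 for *H2-K1* and -0.47 ± 0.19 for *H2-D1*, with adjusted p of 0.0996 and 0.189. *Tapbp* had 108.0 to 134.6 CPM in WT recovery and 127.1 to 151.8 CPM in *Cldn2*KO recovery, a log2 fold change of 0.12 ± 0.15.

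The count of 3 depended on single libraries, as did the calls over all genes. It was 0 without replicate 2 of WT recovery (0.0805% of genes called lower) or replicate 2 of *Cldn2*KO recovery (0.0173%). It was 1 without replicate 1 or 3 of WT recovery (1.28% and 0.167%) or replicate 1 of *Cldn2*KO recovery (0.798%). It was 1 with a term for *Xist* (0.171% of genes called lower), and DESeq2 called 6 members and 4.69% of genes lower. T and NK cell markers summed to 63.9 to 198.5 CPM in WT recovery and 28.4 to 44.8 CPM in *Cldn2*KO recovery, with none of 12 called. *Ptprc* had 18.8 to 27.5 CPM against 12.2 to 20.4 CPM, and 1 of 8 B and plasma cell markers, *Jchain*, was called lower. The part of these cells was not tested.

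After AOM/DSS none of the members was called between genotypes by edgeR, where 0.0059% of all genes were called in either direction. At an unadjusted p under 0.05 there were 2 members, *B2m* and *Nlrc5*, beside 5.6% of all genes. DESeq2 called 0 members and 0.0236% of genes, and limma-voom called 0 members and 0.0059% of genes. The groups overlapped for 10 of 10 members, and 6.38% of all genes had *Cldn2*KO wholly below WT. The median log2 fold change over the members was -0.37.

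*B2m* had 798.6, 384.5 and 631.7 CPM in WT AOM/DSS and 369.8, 462.9 and 340.7 CPM in *Cldn2*KO AOM/DSS, a log2 fold change of -0.63 ± 0.28 (adjusted p = 0.862). *Nlrc5* had 13.6, 6.48 and 44.9 CPM against 6.61, 9.31 and 9.26 CPM, a log2 fold change of -1.36 ± 0.57 (adjusted p = 0.862). Replicate 3 of WT AOM/DSS carried most of that difference, and without it the log2 fold change of *Nlrc5* was -0.26. *Tap1* had 51.4, 22.9 and 68.4 CPM against 24.96, 34.66 and 33.6 CPM (log2 fold change -0.61 ± 0.35, adjusted p = 0.871). For *Nlrc5* and *Tap1* the WT libraries lay both above and below all 3 *Cldn2*KO libraries, and for *B2m* replicate 2 of WT lay within the *Cldn2*KO range. Replicates 2 and 3 of the *Cldn2*KO group carried *Xist* and no WT library of this treatment did, and the count stayed at 0 with a term for *Xist*. None of the cell type markers was called here. *Ptprc* (CD45, on all leukocytes) had 29.3 to 36.4 CPM in WT AOM/DSS and 11.8 to 15.04 CPM in *Cldn2*KO AOM/DSS, and the 12 T and NK cell markers summed to 9.06 to 22.4 CPM against 6.23 to 8.41 CPM, and neither pair of groups overlapped. The log2 fold changes of the smooth muscle markers had a median of 1.09, with 6 of 6 above 0, and those of the neuron and glia markers a median of 0.93, with 5 of 5 above 0. Smooth muscle markers summed to 523.8 to 2789 CPM in WT AOM/DSS and 2183 to 5476 CPM in *Cldn2*KO AOM/DSS. The part of these cells was not tested.

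**Figure D2:**
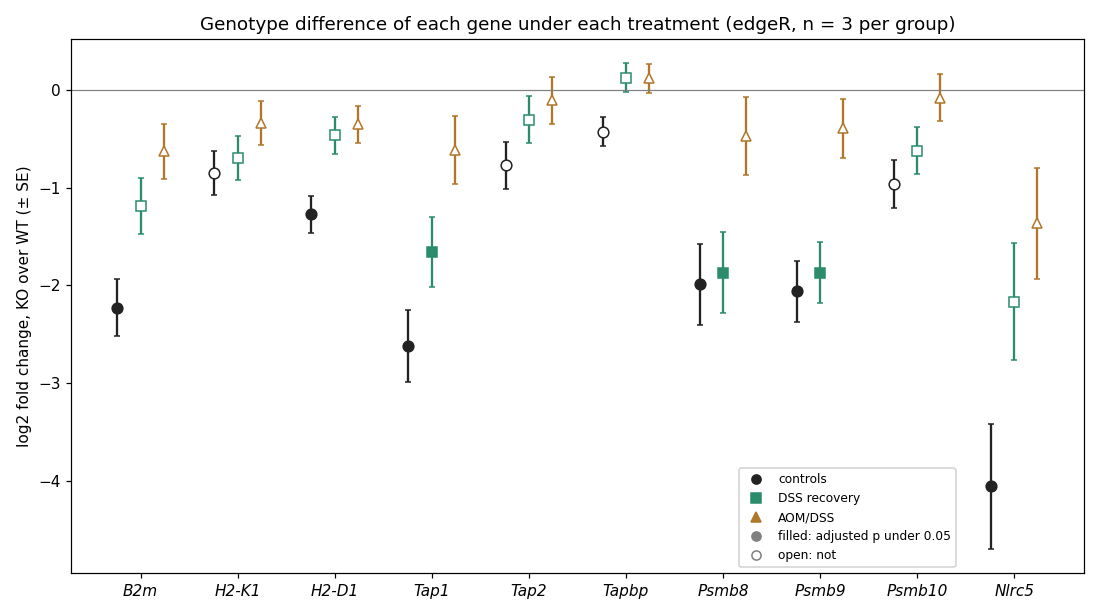
Log2 fold change of *Cldn2*KO over WT with its SE for the 10 genes in controls (circles), DSS recovery (squares) and AOM/DSS (triangles), 3 libraries per group, with filled symbols for an adjusted p under 0.05 in edgeR. In the controls 6 symbols are filled, 3 in recovery and none in AOM/DSS, and *Tapbp* runs from -0.43 in the controls to 0.12 in recovery and AOM/DSS.

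Averaged over the treatments with equal weight, 7 of 10 members were lower in *Cldn2*KO, where 1.21% of all genes were called lower. *Nlrc5* changed most (log2 fold change -2.53 ± 0.35, adjusted p = 0.00121), then *Tap1* (-1.63 ± 0.21), *Psmb8* (-1.44 ± 0.24), *Psmb9* (-1.44 ± 0.18), *B2m* (-1.35 ± 0.16), *H2-D1* (-0.70 ± 0.11) and *H2-K1* (-0.63 ± 0.13). *Psmb10*, *Tap2* and *Tapbp* did not pass (adjusted p = 0.0603, 0.156 and 0.74). Leaving out any 1 library gave 6 to 8 members, with 0.559% to 2.41% of genes called lower.

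By edgeR no member was called for a difference of its genotype effect between treatments. The log2 genotype difference after AOM/DSS minus that in controls was above 0 for 10 of 10 members, with a median of 1.22, and edgeR called 0 members and 0.0118% of genes. At an unadjusted p under 0.05 there were 8 members, beside 8.44% of genes. DESeq2 called 3 members (0.514% of genes) and limma-voom called 8 (1.7% of genes). The largest was *Nlrc5* at 2.70 ± 0.82 (edgeR adjusted p = 0.447), and *Tap1* was at 2.01 ± 0.50 (adjusted p = 0.338). For recovery minus controls edgeR called 0 members and 0.13% of genes, with 4 members and 18.5% of genes at an unadjusted p under 0.05. There DESeq2 called 1 member (5.5% of genes) and limma-voom 5 (10.4%). For AOM/DSS minus recovery edgeR called 0 members and 0.0% of genes, with 2 members and 4.32% of genes at an unadjusted p under 0.05. DESeq2 called 0 members there (0.0709% of genes) and limma-voom 0 (0.0%).

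The immunoproteasome share asks how much of each catalytic position is written for the inducible subunit, as the reads per kilobase of the inducible gene over those of it and its constitutive counterpart. Each share compares genes within a library, so it does not depend on library scaling. *Psmb8* over *Psmb8* plus *Psmb5* was 36.8%, 29.6% and 35.6% in the WT controls and 10.1%, 8.4% and 16.3% in the *Cldn2*KO controls. *Psmb9* over *Psmb9* plus *Psmb6* was 30.8%, 23.1% and 29.7% against 8.91%, 7.43% and 10.7%. *Psmb10* over *Psmb10* plus *Psmb7* was 88.3% to 91.7% against 79.2% to 87.0% in the same groups. The level of a share depends on the lengths of both gene models, so shares are compared here between groups only.

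The mean of the 3 shares was 50.6% ± 3.18 (SD, n = 3) in WT controls and 34.6% ± 3.2 in *Cldn2*KO controls, a difference of -16.0 percentage points. In recovery it was 37.3% ± 2.24 and 31.8% ± 1.91, a difference of -5.58 points. After AOM/DSS it was 36.6% ± 3.01 and 36.3% ± 1.85, a difference of -0.37 points. The exact two-sided permutation p was 0.1, 0.1 and 1.0, and 0.1 is the smallest that 3 against 3 can give. Over all treatments the mean difference was -7.32 points (exact permutation within treatments over 8000 arrangements, p = 0.00475). Of the single shares, the *Psmb8* share differed by -12.0 points (exact permutation p = 0.00125) and the *Psmb9* share by -8.79 points (exact permutation p = 0.003). The *Psmb10* share differed by -1.15 points (exact permutation p = 0.492). This average mixes signs, with -6.85 points in controls, 0.67 in recovery and 2.72 after AOM/DSS. Gene model lengths enter these shares, and read counts not divided by length gave -11.6 points (exact permutation p = 0.00375).

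**Figure D3:**
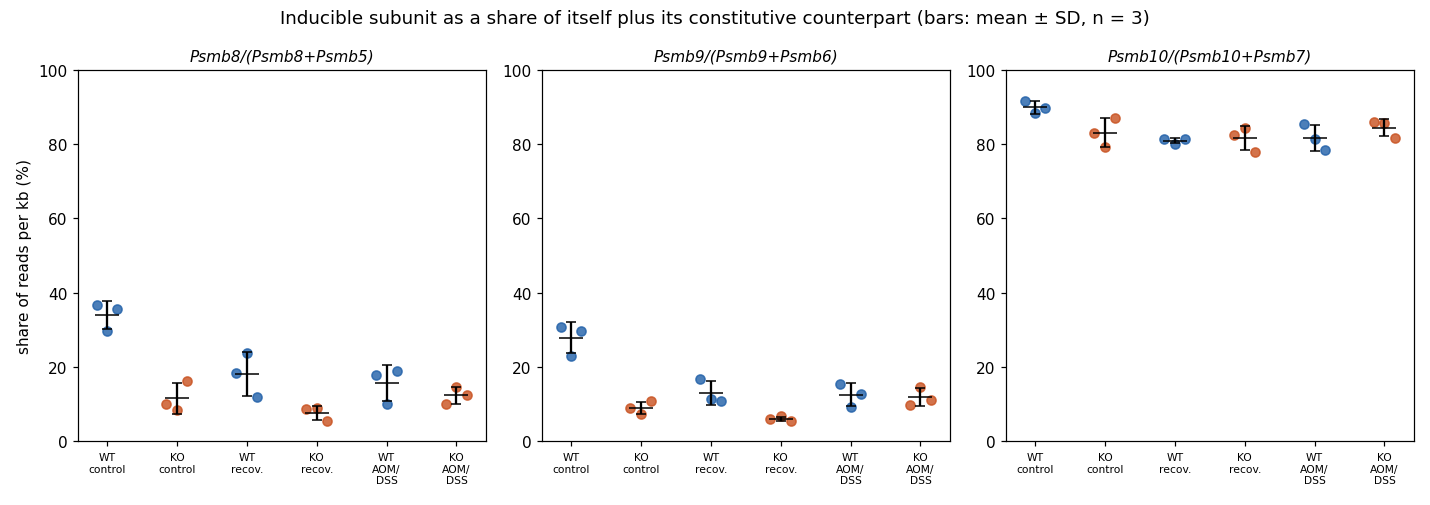
Share of reads per kilobase, in percent, taken by *Psmb8*, *Psmb9* and *Psmb10* against their constitutive counterparts, each point 1 library (WT blue, *Cldn2*KO orange) with the group mean and SD. The *Psmb8* share of the *Cldn2*KO controls, at 8.4% to 16.3%, lies below that of the WT controls, at 29.6% to 36.8%, and the AOM/DSS groups overlap.

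The constitutive subunits were also followed by themselves. *Psmb5* had 58.1 to 68.8 CPM in the WT controls and 54.9 to 73.3 CPM in the *Cldn2*KO controls, and its log2 fold change was -0.07 ± 0.18. None of the 14 constitutive subunits of the 20S core was called there, where 1.05% of all genes were called lower, and their median log2 fold change was -0.10. In recovery the median was -0.66, all 14 were below 0, and 1 of 14, *Psma1*, an α-ring subunit, was called lower in *Cldn2*KO (log2 fold change -0.79 ± 0.17, adjusted p = 0.0407). The recovery shares therefore compare a lower inducible subunit with a constitutive one that was itself at -0.33 (*Psmb5*), -0.68 (*Psmb6*) and -0.71 (*Psmb7*) on the log2 scale, none of which was called.

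The members that act together were also set against each other, as 6 ratios of reads per kilobase within a library. These were chosen after the levels had been seen and are given as a description, with no test. The level of a log2 ratio depends on the lengths of the gene models, so that its zero has no meaning, while a difference between groups does not depend on them. *Tap1* over *Tap2*, the chains of 1 transporter, had log2 ratios of 1.16, 0.95 and 1.41 in the WT controls and -1.01, -0.74 and -0.34 in the *Cldn2*KO controls. The groups did not overlap there, nor in recovery, where the means were 0.81 ± 0.24 and -0.52 ± 0.58 (SD, n = 3). The mean log2 difference over treatments, *Cldn2*KO minus WT, was -1.20. *Tap1* over *Tapbp* differed by -1.54. *B2m* over *H2-K1* differed by -0.71, and its means were 1.44 ± 0.27 in the WT controls and 0.06 ± 0.33 in the *Cldn2*KO controls.

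The other 3 ratios differed less between genotypes on average over treatments. *Tap1* over *Psmb9*, which share the stretch printed above, differed by -0.18 on the log2 scale, with -0.57 in the controls and 0.17 in recovery. *Psmb8* over *Psmb9* differed by 0.01 and was within 0.21 to 0.40 as a group mean in all 6 groups. *H2-K1* over *H2-D1* differed by 0.07 over all treatments, by 0.42 in the controls and by -0.21 in recovery.

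**Figure D4:**
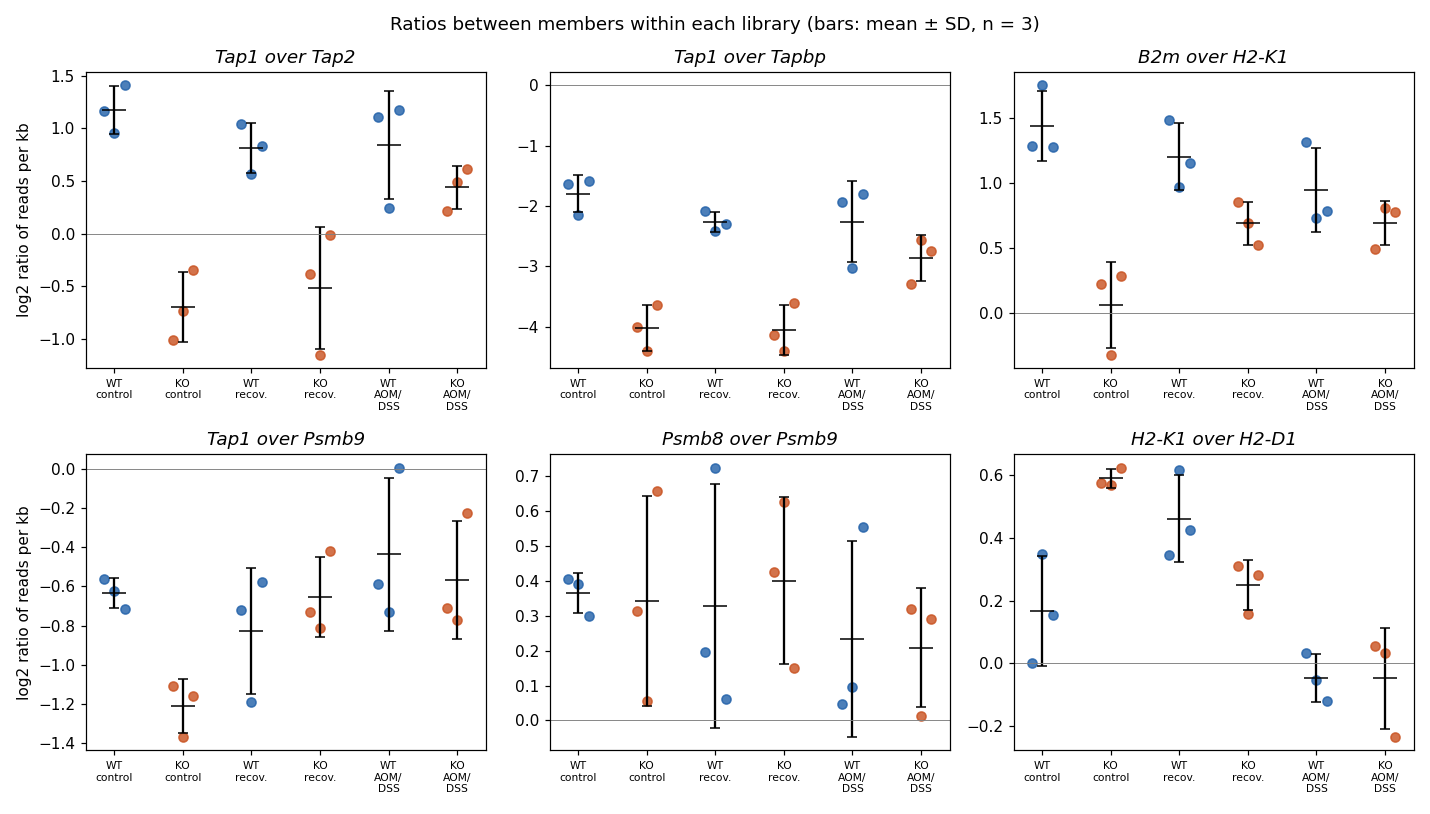
Log2 ratios of reads per kilobase between members in each library (WT blue, *Cldn2*KO orange) with the group mean and SD, n = 3. *Tap1* over *Tap2* is lower in every *Cldn2*KO library than in every WT library in the controls and in recovery, and *Psmb8* over *Psmb9* has like means in the 6 groups.

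Treated WT colon was compared with the same WT controls that serve the genotype comparison, so these results share libraries. After AOM/DSS 9 of 10 members were lower than in WT controls, all but *Nlrc5*, where 6.58% of all genes were called lower. AOM/DSS libraries lay wholly below control libraries for 9 members, which was so for 17.3% of all genes. *B2m* fell by 1.66 ± 0.29 on the log2 scale (adjusted p = 0.00693) and *H2-K1* fell by 1.17 ± 0.23 (adjusted p = 0.0105). *Psmb8* fell by 1.54 ± 0.41 (adjusted p = 0.0321). The smallest fall called was that of *Tapbp*, 0.81 ± 0.15 (adjusted p = 0.00947). *Nlrc5* had a log2 fold change of -0.96 ± 0.56 (adjusted p = 0.266), with the WT AOM/DSS libraries at 6.48 to 44.9 CPM. The fit of these 2 groups alone called 0 of the members and 7 of 15657 genes (0.0447%). The count was 5 without replicate 1 of the WT controls (4.84% of genes called lower) or replicate 2 of WT AOM/DSS (5.77%), 4 without replicate 3 of WT AOM/DSS (0.733%) and 6 without replicate 2 of the WT controls (1.61%). Markers of several cell types moved in the same comparison. Of the epithelial markers 4 of 9 were called lower (*Cdx2*, *Krt20*, *Vil1* and *Krt19*), with a summed 24320 to 26300 CPM in WT controls and 13450 to 18950 CPM in WT AOM/DSS. Of the neuron and glia markers 3 of 5, of the smooth muscle markers 2 of 6 and of the T and NK cell markers 1 of 12 were called lower, the last list with 12 of 12 below 0 and a median log2 fold change of -1.97. The neutrophil genes *S100a8* and *S100a9* were called higher, 2 of the 8 myeloid markers. The other 6 were below 0 with none called, and the median of the list was -0.21. The part of these cells was not tested.

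In *Cldn2*KO colon none of the members was called after AOM/DSS against controls by edgeR, where 0.195% of genes were called in either direction. There 3 members and 15.2% of genes had an unadjusted p under 0.05. DESeq2 called 0 members (3.55% of genes) and limma-voom called 3 (18.1% of genes). *Nlrc5* had 1.13 to 5.005 CPM in *Cldn2*KO controls and 6.61 to 9.31 CPM after AOM/DSS, the groups apart, with a log2 fold change of 1.74 ± 0.60 (adjusted p = 0.199). *B2m* had a log2 fold change of -0.06 ± 0.28 and *H2-K1* of -0.66 ± 0.22 (adjusted p = 0.189).

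In WT recovery 4 of 10 members were lower than in WT controls, *Tap1*, *Tap2*, *Tapbp* and *Psmb9*, where 12.2% of all genes were called lower. Recovery libraries lay wholly below control libraries for 6 members, which was so for 20.9% of all genes. *Tap1* fell by 1.30 ± 0.35 on the log2 scale (adjusted p = 0.0168), *Psmb9* by 1.09 ± 0.30 (adjusted p = 0.0195), *Tap2* by 0.93 ± 0.24 (adjusted p = 0.0132) and *Tapbp* by 0.81 ± 0.15 (adjusted p = 0.00235). The heavy chain *H2-K1* had a log2 fold change of -0.09 ± 0.22. With a term for *Hoxb13* the count was 1 (4.89% of genes called lower), and it was 1 without replicate 1 of the WT controls (6.4%) or replicate 3 of WT recovery (6.38%). Within the control and recovery groups only replicate 2 of the WT controls differed from its group in *Hoxb13*, so that term rests on that library. In the same comparison 5 of 8 B and plasma cell, 4 of 8 myeloid and 4 of 9 epithelial markers were called lower. So were 3 of 6 smooth muscle and 3 of 4 endothelial markers, and none of these lists had a marker called higher. Of the 12 T and NK cell markers *Cd4* was called lower and none higher. Only 3 of those 12 were below 0, and their median log2 fold change was 0.38. The part of these cells was not tested. Of the 14 constitutive 20S subunits, 8 were called higher in WT recovery, where 10.0% of all genes were called higher. In *Cldn2*KO recovery against *Cldn2*KO controls edgeR called 0 members, beside 19.4% of genes in either direction, and 3 members and 32.5% of genes had an unadjusted p under 0.05. DESeq2 called 1 member (23.9% of genes) and limma-voom called 2 (33.8% of genes). *B2m* had a log2 fold change of 0.66 ± 0.28 there and *Psmb9* of -0.90 ± 0.31 (adjusted p = 0.113 and 0.0508), and the count was 1 without replicate 2 of the *Cldn2*KO controls (12.8% of genes in either direction). Cell type markers moved in this comparison as well. Of the 12 T and NK cell markers 6 were called higher (*Gzma*, *Gzmb*, *Cd3e*, *Cd8a*, *Nkg7* and *Klrd1*), and the list summed to 1.77 to 10.6 CPM in *Cldn2*KO controls and 28.4 to 44.8 CPM in *Cldn2*KO recovery. All 6 smooth muscle markers, 2 of 8 B and plasma cell markers and 3 of 8 myeloid markers were called lower. The myeloid *S100a8* and *S100a9* were called higher. *Cdx2* was called higher as 1 of 9 epithelial markers, of which 5 were below 0, with a list median of -0.03 (log2). The part of these cells was not tested.

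The remaining heavy chains were followed in a list of 18, of which 17 passed the filter. In the controls 5 of 17 were lower in *Cldn2*KO and none higher, with a median log2 fold change of -1.13. *H2-Q7* had 48.6 to 80.3 CPM in WT controls and 1.997 to 8.77 CPM in *Cldn2*KO controls (log2 fold change -3.81 ± 0.77, adjusted p = 0.0265). *H2-Q6*, its close relative, had a log2 fold change of -3.58 ± 0.64 (adjusted p = 0.0139) and *H2-Q4* of -1.69 ± 0.31 (adjusted p = 0.0132). These Q-region genes are near copies and their reads can be split between them. *H2-T23* (Qa-1), which presents to NK and CD8 T cell receptors, had 321.3 to 546.6 CPM against 149.0 to 227.4 CPM and missed the threshold (log2 fold change -1.13 ± 0.32, adjusted p = 0.0998). None of the 17 was called in recovery or AOM/DSS, where 0.425% and 0.0059% of all genes were called lower, so that 0 of 17 is near the background. Their median log2 fold change was -0.58 in recovery, with 16 of 17 below 0, and -0.10 after AOM/DSS.

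Of the 7 other peptide loading and trimming genes, 1 was called in the controls, *Tapbpl* (TAPBPR, a tapasin relative that edits peptides), lower with a log2 fold change of -0.78 ± 0.17 (adjusted p = 0.0371), and the median of the list was 0.02. Of the 5 proteasome activator and assembly genes, *Psme1* was lower in *Cldn2*KO controls (log2 fold change -0.95 ± 0.21, adjusted p = 0.0364). Its partner in the PA28 ring, *Psme2*, had 306.2 to 317.5 CPM in WT controls and 155.6 to 223.5 CPM in *Cldn2*KO controls (log2 fold change -0.77 ± 0.21, adjusted p = 0.0852). Averaged over treatments both were lower, with adjusted p of 0.0322 and 0.0164.

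Upstream in interferon signalling, 2 of 13 genes that passed the filter were lower in *Cldn2*KO controls, *Stat2* and *Irf1*. *Irf1*, the transcription factor that binds the ISRE of class I genes, had 391.6, 362.0 and 357.2 CPM in WT controls and 173.4, 189.3 and 209.4 CPM in *Cldn2*KO controls (log2 fold change -0.96 ± 0.18, adjusted p = 0.0146). *Stat2* had a log2 fold change of -1.36 ± 0.28 (adjusted p = 0.0257). *Ifng* itself did not pass the filter and was at most 1.004 CPM in any library, and it was at 0 in all 3 *Cldn2*KO controls. Averaged over treatments *Irf9*, *Stat2* and *Irf1* were lower (adjusted p = 0.0082, 0.0078 and 0.00565) and no gene of the list was higher.

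Nlrc5 works through the RFX, CREB/ATF and NF-Y factors that sit on the promoter. Of the 8 genes of these factors and *Ciita*, the class II counterpart of *Nlrc5*, 1 of 9 was called lower in the controls and 1 of 9 in recovery, *Ciita* both times. With 1.05% and 0.425% of all genes called lower there, no call among the other 8 is near the background and is not a result about them. *Ciita* had 30.5, 32.2 and 29.2 CPM in WT controls and 0.887, 0.333 and 4.41 CPM in *Cldn2*KO controls (log2 fold change -4.03 ± 0.62, adjusted p = 0.00485). In recovery it had 5.59 to 9.40 CPM against 0.321 to 0.787 CPM (log2 fold change -4.01 ± 0.66, adjusted p = 0.0166).

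**Figure D5:**
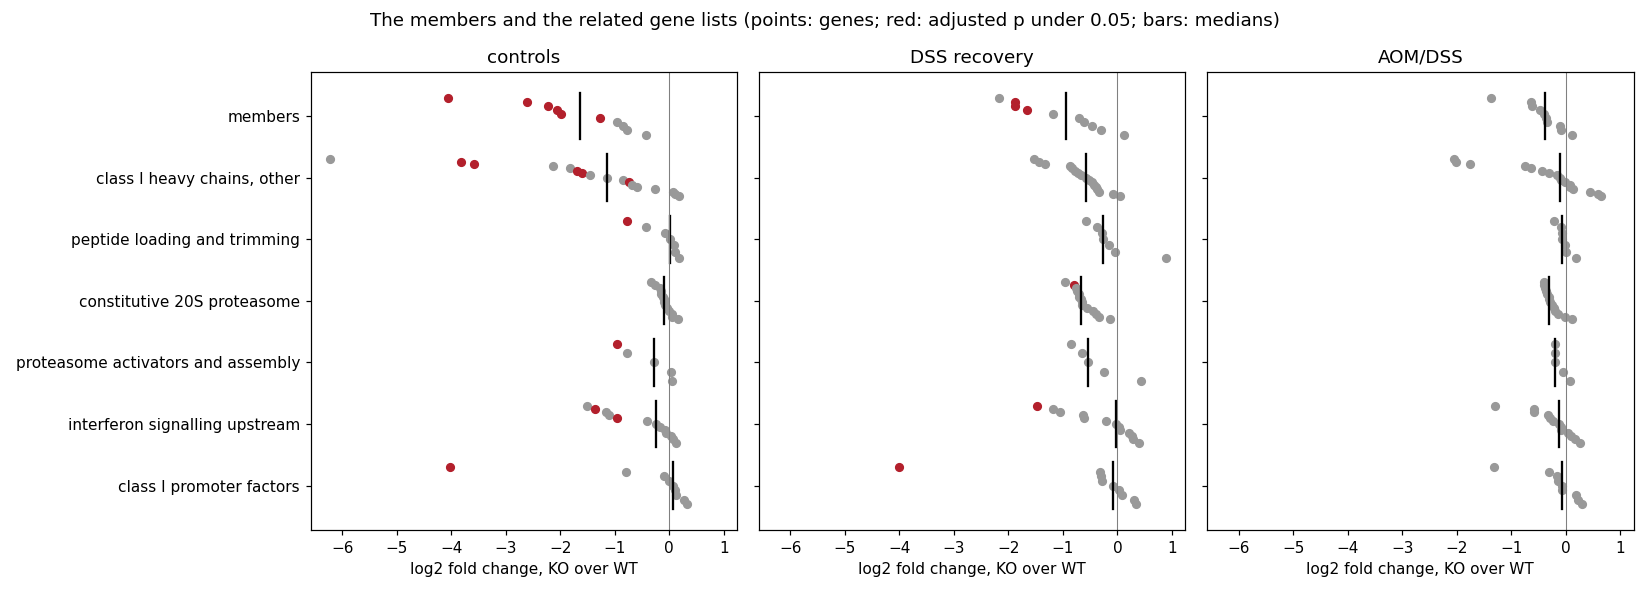
Log2 fold change of *Cldn2*KO over WT for each tested gene of the 10 members and 6 related lists in controls, DSS recovery and AOM/DSS, with red points for an adjusted p under 0.05 in edgeR and bars at list medians. Every red point lies below 0, the constitutive 20S genes sit near 0 in the controls and at a median of -0.66 in recovery, and no point is red after AOM/DSS.

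The genes whose pattern over the 18 libraries was most like that of the members were ranked by Pearson's r with the mean of the members' standardized log2 CPM. They were *H2-DMa* (r = 0.94), *Psme1* (r = 0.94), *Il18bp* (r = 0.93), *H2-DMb1* (r = 0.92) and *AU020206* (r = 0.92). *H2-DMa* and *H2-DMb1* encode the chains that load class II molecules, and *Il18bp* a secreted inhibitor of interleukin-18. Of the members, *Psmb8* was most like the mean (r = 0.96) and *Tapbp* least (r = 0.68). Each member is part of that mean, which raises its r, so these values cannot be set beside those of the genes outside. With group means taken off, which leaves the spread among replicates, the closest were *Atp8b4* (r = 0.91), *H2-Q4* (r = 0.87), *H2-Q7* (r = 0.87), *Gbp6* (r = 0.86) and *AF357399* (r = 0.86). Between members, *Psmb8* and *Psmb9* were closest over the 18 libraries (r = 0.98), and *Tapbp* and *Nlrc5* farthest apart (r = 0.39). The libraries share groups, scaling and cell makeup, and these values are a description.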

How the data were processed

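Total RNA from mouse colon was sequenced (NovaSeq6000) in 18 libraries on 2 lanes. The authors deposited 1 table of raw read counts per gene for 47729 genes, made with featureCounts (Subread) on GRCm38. The submitters' processing notes name HISAT2 as aligner and the study's methods name TopHat2. Strand and multi-mapping settings are not given in the sources used here. Lanes were summed. The lanes of a library differed little (chi-square per degree of freedom 1.08 to 1.17, against at least 11.0 between replicates). IDs were matched to symbols for 47224 genes.

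Counts were tested with edgeR 4.0.16 (R 4.3.3; TMM scaling, filterByExpr leaving 16937 genes, robust quasi-likelihood, 1 mean per group over all 18 libraries), with Benjamini-Hochberg adjustment over all genes and a call at an adjusted p under 0.05. DESeq2 1.42.0 and limma-voom (limma 3.58.1) with sample weights were alternatives. The study describes the treated groups as mice, in groups of the size deposited, but the labels tie no library to an animal, so p-values are stated for the spread between these samples. Shares were tested by exact two-sided permutation within treatments. Scripts were tested on simulated data.

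The members and gene lists were chosen with earlier results of these data known. All 10 members were named, up to 3 called genes per other list and genotype comparison, a fixed set of related genes (among them *Irf1*, *Ifng*, *Psme1*, *Psme2*, *H2-T23*) and the 5 genes of most like pattern. *Tapbpl* in the controls and *Psma1* in recovery are the only genes of their lists called between genotypes within a treatment. Averaged over treatments *Erap1*, of the same list as *Tapbpl*, was called lower. Other lists checked were T and NK cell, B and plasma cell, myeloid, epithelial, smooth muscle, endothelial and enteric neuron and glia markers. Endothelial and neuron and glia markers had no gene called between genotypes in any treatment, with medians of -0.42 and -0.04 (log2) in the controls, 0.18 and 0.43 in recovery and 0.28 and 0.93 after AOM/DSS. Promoter windows (RefSeq) were read with Python 3.11 and words of 50 bases were compared over GENCODE M21 transcripts. Values of 1 gene of the interferon list are not reported here.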

Additional observations from a re-analysis of the deposited data

How the results depend on the processing

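The 10 members gave 1290 alternative values over 8 comparisons between groups, of which 1136 kept direction and side of the threshold, 83 lost a call, 41 gained one and 30 turned sign. No call turned sign, since the values that turned were all of members not called. Counts of members called moved by over 1.5 times in these cases. The share of all genes called lower, in brackets, moved too. In the controls limma-voom gave 10 (8.84%, against 1.05%). In recovery the count was 1 without the filter on low counts (0.118%, against 0.425%), 6 with DESeq2 (4.69%), 5 with limma-voom (5.74%) and 1 with a term for *Xist* (0.171%). For WT recovery against control it was 8 with limma-voom (24.7%, against 12.2%) and 1 with a term for *Hoxb13* (4.89%). For *Cldn2*KO recovery against control it was 1 with RLE scaling (19.4% in either direction, against 19.4%), upper quartile scaling (3224 of 16937 genes), DESeq2 (23.9%) and the fit of the compared groups alone (24.4%), and 2 with limma-voom (33.8%). For AOM/DSS against control it was 0 in WT with the compared groups alone (0.0447%, against 6.58%) and 3 in *Cldn2*KO with limma-voom (18.1% in either direction, against 0.195%). The difference of genotype effects between recovery and controls had 1 call with DESeq2 (5.5% in either direction) and 5 with limma-voom (10.4%), and that between AOM/DSS and controls 3 (0.514%) and 8 (1.7%). Fitting fewer samples leaves fewer degrees of freedom, and for the other settings the cause was not tested.

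Leaving out 1 library at a time gave 2 to 7 members in the controls (0.132% to 1.62% of genes called lower), 0 to 2 in recovery (0.0173% to 1.99%), 0 in AOM/DSS (0.00575% to 0.0116% in either direction) and 6 to 8 on average over treatments (0.559% to 2.41% lower). It gave 1 to 5 for WT recovery (6.38% to 13.3% lower) and 4 to 6 for WT AOM/DSS against control (0.733% to 7.13% lower). It gave 0 to 1 for *Cldn2*KO recovery (11.3% to 16.3% in either direction), 0 for *Cldn2*KO AOM/DSS (0.023% to 1.22%) and 0 for the differences of effects (0.0% to 1.81%). The mean share difference ran from -7.92 to -6.83 points.

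Log2 values turned sign as follows. Between genotypes after AOM/DSS limma-voom gave 0.0491 for *Tap1* and 0.0904 for *Tap2*. In *Cldn2*KO recovery against control *H2-K1* was -0.036 with upper quartile scaling and -0.0796 with a term for *Hoxb13*, *Tap1* 0.36 and *Psmb10* 0.27 with that term, and *Psmb10* 0.20 with limma-voom. No *Cldn2*KO control or recovery library differed from its group in *Hoxb13*, so the size of that term came from the WT controls. In *Cldn2*KO AOM/DSS against control *H2-D1* was 0.0077 without the filter and 0.0431 with limma-voom, and *Psmb8* 0.00592 and 0.281. Without single libraries, the ranges between genotypes after AOM/DSS were -0.265 to 0.0742 for *Tap2* and -0.23 to 0.12 for *Psmb10*, and in WT recovery against control -0.379 to 0.0705 for *H2-K1*. In *Cldn2*KO recovery they were -0.0364 to 0.19 for *H2-K1*, -0.56 to 0.04 for *Tap1* and -0.20 to 0.27 for *Psmb10*. In *Cldn2*KO AOM/DSS they were -0.24 to 0.23 for *B2m*, -0.12 to 0.10 for *H2-D1*, -0.30 to 0.58 for *Psmb8* and -0.0825 to 0.409 for *Psmb10*.

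Replicate numbers were given in the labels of the controls. Deviations of same-numbered controls from their group means correlated at 0.157, 0.00234 and 0.0794, and those of differently numbered controls at -0.168 to 0.0803. These values show no pairing of the samples, and with 3 libraries per group they cannot exclude one. With the replicate block *Cldn2*KO recovery against control had 1 call (18.7% of genes in either direction), *Psmb8* in *Cldn2*KO AOM/DSS against control turned to 0.10, and no other count moved by over 1.5 times.

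The 3 libraries per group limit precision, as does the count of *Nlrc5*, 23 to 93 reads in the *Cldn2*KO controls.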
